A study of Arabidopsis thaliana with 39 samples.

Results

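Transcript counts of 10 circadian clock genes of Arabidopsis thaliana were followed through the induction of secondary dormancy, through recovery in light, among single seeds, between genotypes and in dry seed pools. The genes were taken by locus identifier and are CCA1 (AT2G46830), LHY (AT1G01060), PRR9 (AT2G46790), PRR7 (AT5G02810), PRR5 (AT5G24470), TOC1 (AT5G61380), GI (AT1G22770), ELF3 (AT2G25930), ELF4 (AT2G40080) and LUX (AT3G46640). They are 10 of the 27432 nuclear protein-coding genes in the count tables, and all 10 were listed in every table. Of these, 9 had enough counts for the tests between groups of seeds, and PRR9 did not. The 3′ ends of polyadenylated transcripts had been sequenced from single seeds, each marked by its own barcode, and molecules were counted by unique molecular identifiers (UMIs). In the time course, seeds of the accession Col-0 were taken after imbibition for 1 h at 22 °C (1h). Further seeds were taken after 1, 3, 5 and 7 days in the dark at 30 °C (1d, 3d, 5d and 7d). The last were taken after 7 days of that treatment and 24 h of recovery in light at 22 °C (7d+24h). Light and the return to 22 °C came together, so their parts cannot be told apart. A pool-split control held extracts of Col-0 seeds treated for 7 days that had been combined and divided again, so that its wells differ by technique alone. A second experiment compared single seeds of the mutant dog1-4, which lacks normal function of the dormancy gene DOG1, with Col-0 at 3d and at 7d+24h. In the dry seed experiment, 3 pools of untreated dog1-4 seeds were compared with 3 pools of untreated Col-0 seeds, from bulk RNA. All seeds were after-ripened and had been stored for at least 6 months. Each group of single seeds held 3 libraries of 32 seeds, and the same 32 barcodes served in every library. The libraries of the time course are batches from 1 seed pool, and nothing in the labels assigns those of the dog1-4 experiment to separate pools, so the p-values measure the spread between batches of seeds, and genotype and seed pool cannot be told apart. The labels name long-day conditions for the recovery and the methods name constant light, and the hour of the day at which seeds were taken is not given in the sources used here.

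The plant clock is a loop of transcriptional repressors that act one after the other through the day. The MYB factors CCA1 and LHY are made around dawn and repress evening genes, the pseudo-response regulators PRR9, PRR7, PRR5 and TOC1 follow in sequence and repress CCA1 and LHY, and ELF3, ELF4 and LUX form the evening complex, which represses PRR9 and other genes at night. GI is an evening protein that joins light-sensing F-box proteins such as FKF1 in the degradation of clock and flowering regulators. In seedlings the loop is set by light and temperature cycles, and in dry and imbibed seeds clock genes have been linked to the reading of dormancy-breaking signals.

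The promoters of 4 of the genes are shown. PRR5 (upwards) and CCA1 and LHY (downwards) were chosen because they changed past both limits given below during recovery. The LUX window serves as an example with an evening element and a G-box, as also in PRR9. Each window runs from 250 bases before to 50 bases after the annotated gene start, read 5′ to 3′ on the strand of the gene from RefSeq's TAIR10.1 genome and annotation, in which all 10 genes were found, and 9 windows were searched. The windows are chr5:8358497-8358796 on the minus strand for PRR5, chr2:19245341-19245640 on the plus strand for CCA1, chr1:37822-38121 on the minus strand for LHY and chr3:17182792-17183091 on the plus strand for LUX. Capitals mark the evening element (AAAATATCT), the CCA1-binding site (AAAAATCT) or the G-box (CACGTG), searched on both strands.
PRR5: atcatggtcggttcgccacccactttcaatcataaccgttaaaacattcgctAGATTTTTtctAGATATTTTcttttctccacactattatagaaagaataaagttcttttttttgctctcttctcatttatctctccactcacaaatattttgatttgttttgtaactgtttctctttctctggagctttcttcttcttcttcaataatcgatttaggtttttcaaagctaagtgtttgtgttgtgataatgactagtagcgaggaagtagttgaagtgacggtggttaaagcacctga
CCA1: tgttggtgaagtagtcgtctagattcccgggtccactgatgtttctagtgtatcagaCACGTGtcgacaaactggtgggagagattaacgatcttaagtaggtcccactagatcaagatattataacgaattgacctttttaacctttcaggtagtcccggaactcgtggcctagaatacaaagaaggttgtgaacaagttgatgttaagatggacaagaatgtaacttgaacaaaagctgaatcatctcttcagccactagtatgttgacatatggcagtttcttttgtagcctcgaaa
LHY: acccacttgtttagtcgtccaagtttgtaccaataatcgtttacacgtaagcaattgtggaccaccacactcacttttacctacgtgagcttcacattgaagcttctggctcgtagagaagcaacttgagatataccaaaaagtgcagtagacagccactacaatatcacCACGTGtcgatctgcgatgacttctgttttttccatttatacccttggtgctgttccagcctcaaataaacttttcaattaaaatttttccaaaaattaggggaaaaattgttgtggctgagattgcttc
LUX: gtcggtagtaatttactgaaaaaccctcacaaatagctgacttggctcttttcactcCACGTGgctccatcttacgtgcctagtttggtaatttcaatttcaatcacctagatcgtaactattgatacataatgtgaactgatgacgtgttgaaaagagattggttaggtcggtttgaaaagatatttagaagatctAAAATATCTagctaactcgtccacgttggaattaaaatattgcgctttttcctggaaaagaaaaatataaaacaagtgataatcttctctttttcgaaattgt
The evening element, a sequence known for binding CCA1 and LHY, was found in the windows of 4 of the 9 genes (PRR9, PRR5, TOC1 and LUX), against 2.82% of 27437 promoters of the same length. The CCA1-binding site occurred in 1 of the 9 (PRR5), against 7.88% of all promoters, and the G-box, a site of light-regulated bZIP and bHLH factors, in 5 of the 9 (CCA1, LHY, PRR9, PRR7 and LUX), against 7.68%. No motif overlapped another in these 4 windows. A match in so short a window is a description and not a binding site.

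Depth and background differed between groups. The kept seeds of a library held 731262 to 3131285 UMIs on nuclear protein-coding genes in the time course and 1736693 to 4989465 in the dog1-4 experiment. Dry pools had 836195 to 3377944 counts. The median share of a seed's UMIs outside these genes lay between 20.9% and 72.7% over the time points, with 69.2% at 3d and 72.7% at 5d, and between 12.3% and 13.8% over the groups of the dog1-4 experiment. Transcripts of the 5 seed storage and maturation markers were present in every group, at 33700 to 37800 summed normalized CPM (counts per 1000000 UMIs of a library, scaled by the trimmed mean of M-values, TMM) at 7d+24h and 114000 to 141000 at 7d. DOG1 itself lay at 7.09 to 12 CPM in dog1-4 and 59.0 to 142 CPM in Col-0 at 3d, at 0.947 to 2.46 CPM in dog1-4 and 13.5 to 20.2 CPM in Col-0 at 7d+24h, and at 3.64 to 7.91 CPM in dog1-4 and 69.5 to 80.9 CPM in Col-0 dry pools. The third dog1-4 library at 3d stood apart, since 8 of its 32 seeds held 516 to 1449 UMIs each of the leaf genes LHCB1.1 and LHCB1.3, against 0 to 2 UMIs in each of its other 24 seeds. In these 8 seeds together ELF4 stood at 108 and PRR5 at 38.7 CPM of their total, against 116 and 42.4 CPM in the other 24. Levels below are normalized CPM of library sums, given in the order of the libraries' numbers, and a gene was called changed at a Benjamini-Hochberg adjusted p under 0.05 over all genes tested and a log2 fold change beyond 1 (edgeR quasi-likelihood test, n = 3 libraries a group). Because whole seeds were ground, fewer cells that express a gene and less RNA per cell cannot be told apart.

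During the treatment in the dark the evening gene ELF4 was called lower at 1d than at 1h, as were 38.1% of all genes. The morning genes CCA1 and LHY and the afternoon gene PRR5 were called higher at 3d than at 1d, as were 40.8% of all genes. A gene filter rebuilt after the study's, given with the alternatives below, kept 8070 genes. Among those, 13.5% were called lower at 1d than at 1h and 9.01% higher at 3d than at 1d. The calls of LHY and PRR5 were lost under several alternatives given below. All 9 tested clock genes changed over the 6 time points (F-test, adjusted p between 4.18e-14 for ELF4 and 0.000407 for GI), where 84.1% of 20205 genes did. The plot of levels in the time course shows the course of each gene.

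**Figure D1:**
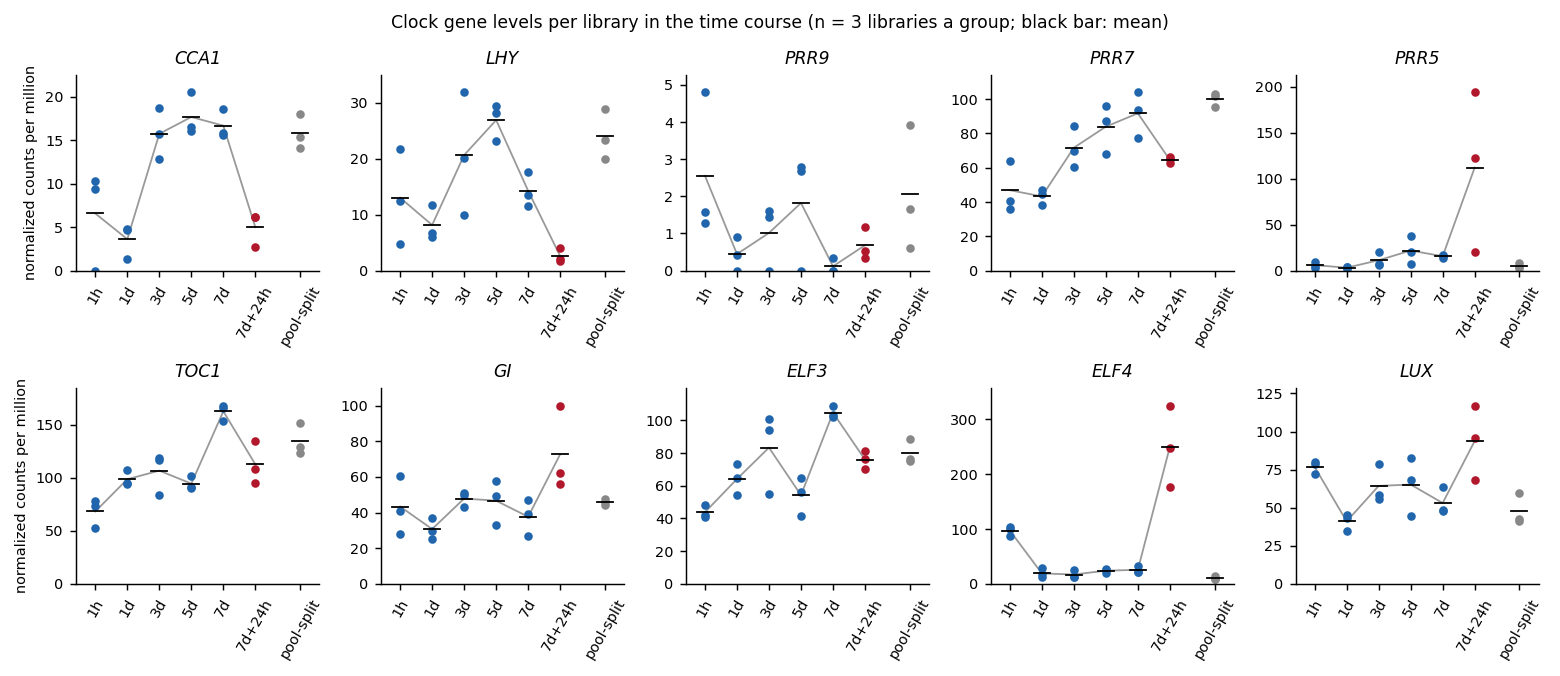
Normalized CPM of the 10 clock genes in each library of the time course (points), with the mean of 3 libraries as a bar, the time points joined by a line and the pool-split control in grey. ELF4 lay at 87.7 to 104 at 1h, at 12.2 to 33.4 in all libraries of the dark treatment and at 177 to 325 at 7d+24h.

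ELF4, a small protein of the evening complex that binds ELF3, had 12.2, 17.1 and 28.0 CPM at 1d, against 87.7, 100 and 104 CPM at 1h. The ranges were far apart, with every 1d library well below the lowest 1h library. ELF4 fell by 2.35 on the log2 scale (SE 0.273, adjusted p = 8.1e-08) and was the 1 clock gene called between 1d and 1h, where 45.9% of 20205 genes were called, 7.83% upwards and 38.1% downwards. LUX, the DNA-binding member of the evening complex, had 34.8, 43.1 and 45.2 CPM at 1d, against 79.9, 78.4 and 72.0 CPM at 1h. Its log2 fold change of -0.90 (SE 0.230, adjusted p = 0.00163) passed the p but not the fold limit. TOC1 and ELF3 also passed the p alone, with log2 fold changes of 0.54 and 0.55, while the median over all genes tested was -0.633. At any fold, 13.4% of all genes passed the p upwards and 44.7% downwards. The second 1h library held 573 CPM of the 3 photosynthetic markers, whose sum ran from 38.4 CPM in that group, and without the third 1h library, which held 0 UMIs of CCA1, both CCA1 (-1.46, adjusted p = 0.0178) and LHY (-1.13, adjusted p = 0.0324) were called lower at 1d.

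CCA1 had 12.8, 15.7 and 18.7 CPM at 3d, against 4.78, 4.69 and 1.36 CPM at 1d. LHY, its close relative, had 31.9, 10.0 and 20.1 CPM at 3d, against 11.7, 5.97 and 6.78 CPM at 1d. The CCA1 libraries of the 2 time points were apart, and 2 of the 3 LHY libraries at 3d lay above all those at 1d. CCA1 rose by 2.13 (SE 0.469, adjusted p = 0.00036) and LHY by 1.31 on the log2 scale (SE 0.399, adjusted p = 0.00622). PRR5 was called too, at 6.38, 7.15 and 20.1 CPM at 3d against 1.30, 3.84 and 4.07 CPM at 1d (log2 fold change 2.06, SE 0.870, adjusted p = 0.0449), and the third library at 3d held 28 of its 37 UMIs there. Without that library the PRR5 value was 1.20 with an adjusted p of 0.444, without any 1 library of 1d its adjusted p lay between 0.0542 and 0.121, and without the first library at 3d LHY stood at 0.97 with an adjusted p of 0.0629. In the seeds below the median unspecific share of their library LHY (0.60, adjusted p = 0.387) and PRR5 (1.69, adjusted p = 0.219) were not called. These 3 of 9 clock genes compare with 45.2% of all genes called between 3d and 1d, 40.8% upwards and 4.4% downwards, and a median log2 fold change of 0.612. PRR7 (0.70), LUX (0.68) and GI (0.64) passed the p but not the fold limit and lay near that median. At any fold, 46.1% of all genes passed the p upwards and 11.3% downwards. Among the 8070 genes of the rebuilt filter, 9.01% were called upwards and 7.71% downwards, and their median is not given here.

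Between 5d and 3d no clock gene was called, against 0.0297% of all genes, and 1 of 9, ELF3, had an unadjusted p under 0.05 (log2 fold change -0.58, adjusted p = 0.548). Shares of all genes under this unadjusted limit are not given here or below, so counts of clock genes at it have no background. DESeq2 called 0 of the 9 too. Between 7d and 5d no clock gene passed both limits either, while 46% of all genes were called and the median of all genes was -0.764. Among the genes of the rebuilt filter, 1.2% were called upwards and 10.3% downwards. At any fold, 10.9% of all genes passed the p upwards and 48.8% downwards. TOC1, the repressor that closes the loop on CCA1 and LHY, had 154, 168 and 166 CPM at 7d, against 90.6, 90.9 and 102 CPM at 5d. ELF3, the scaffold of the evening complex, had 109, 102 and 103 CPM at 7d, against 64.7, 56.2 and 41.8 CPM at 5d. Both sets of libraries were apart, with log2 fold changes of 0.78 for TOC1 (SE 0.166, adjusted p = 0.000255) and 0.96 for ELF3 (SE 0.195, adjusted p = 0.000146). LHY went the other way, with 13.6, 11.6 and 17.6 CPM at 7d against 28.2, 29.4 and 23.2 CPM at 5d, and just missed the threshold (log2 fold change -0.85, adjusted p = 0.0509). These 3 genes were the ones with an unadjusted p under 0.05, and DESeq2 called none of the 9 past both limits.

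Across the whole treatment, 4 of 9 clock genes were called between 7d and 1h, where 43.9% of all genes were called, 7.23% upwards and 36.6% downwards, and the median was -0.699. Among the genes of the rebuilt filter, 11.8% were called upwards and 16.4% downwards. CCA1 (1.27, adjusted p = 0.0352), TOC1 (1.26, adjusted p = 2.24e-06) and ELF3 (1.26, adjusted p = 2.17e-05) were higher at 7d and ELF4 was lower (-1.85, adjusted p = 4.2e-06). The 7d libraries held 15.6, 18.6 and 15.8 CPM of CCA1, against 9.40, 10.3 and 0 CPM at 1h, so that the third 1h library decided the value, and CCA1 stood at 0.65 with an adjusted p of 0.223 without it. Leaving out any of 4 other libraries also moved the adjusted p of CCA1 above 0.05, to between 0.0505 and 0.0651. PRR7, which represses CCA1 and LHY in the morning, had 93.8, 104 and 77.5 CPM at 7d and 40.7, 36.0 and 64.0 CPM at 1h, with no overlap and a log2 fold change of 0.96 (SE 0.199, adjusted p = 0.000284).

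PRR9, the earliest of the pseudo-response regulators, was at or near the limit of detection throughout. Its 3 libraries together held 5 UMIs at 1h, 3 at 1d, 3 at 3d, 5 at 5d, 1 at 7d and 7 at 7d+24h, and those of the pool-split control 8. At these counts no difference could be detected.

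The order of the mean levels differed between the genes. CCA1 was highest at 5d (17.7 ± 2.43 CPM, SD, n = 3), followed by 7d (16.7 ± 1.64), pool-split (15.8 ± 1.96) and 3d (15.7 ± 2.97), which overlapped, and lower at 1h (6.56 ± 5.70), 7d+24h (4.99 ± 1.97) and 1d (3.61 ± 1.95), which overlapped in turn. TOC1 (163 ± 7.48 CPM) and ELF3 (105 ± 3.57 CPM) were highest at 7d, with all their libraries above every library of the next highest group. PRR7 was highest in the pool-split control and at 7d, and its neighbours in the order overlapped throughout. LUX was highest at 7d+24h (93.8 ± 24.4 CPM) and 1h (76.8 ± 4.20 CPM), which overlapped, and lowest at 1d (41.0 ± 5.51 CPM).

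Of 32 other clock genes, 12 were called between 1d and 1h. The circadian RNA-binding protein GRP7 (2.92), ELF4-L3 (1.51) and LNK4 (1.32) were higher at 1d. Lower at 1d were 9, led by the flowering regulators CDF1 (-3.60) and CO (-2.55), then RVE1 (-2.42) and the ELF4 relatives ELF4-L4 (-2.40) and ELF4-L1 (-2.05). Between 3d and 1d the direction of several of these was the other, with CDF1 (4.89), CO (2.98), ELF4-L4 (2.12), RVE1 (1.63) and COR27 (1.35) among 6 higher and GRP7 (-1.05) the 1 lower. None was called between 5d and 3d. Between 7d and 5d, where 1.51% of all genes were called upwards and 44.5% downwards, GRP7 (1.24), GRP8 (1.23) and the activator RVE4 (1.05) were higher, and CO (-3.11), CDF1 (-3.10), ELF4-L4 (-1.73) and LKP2 (-1.08) were lower. Because neighbouring comparisons share a time point, these values are not independent of each other. CDF1 and CO held 0 or 1 counts in each dry pool and had too few counts for a test in the dog1-4 experiment. The median unspecific share of a seed was 52.8% at 1h, 20.9% at 1d, 69.2% at 3d, 72.7% at 5d and 28.2% at 7d. Its part in the values of CDF1 and CO was not tested. Between 7d and 1h, 9 of the 32 were higher, led by GRP7 (3.57) and LNK2 (1.78), and 6 lower, led by CO (-2.37) and ELF4-L1 (-1.84).

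After 24 h of recovery the evening gene ELF4 and the afternoon gene PRR5 were higher than at 7d and the dawn genes CCA1 and LHY lower, 4 of 9 genes called where 14.4% of 20205 genes were, 8.26% upwards and 6.18% downwards. All 5 remaining genes passed the p without the fold limit, GI and LUX with higher and PRR7, TOC1 and ELF3 with lower values. At any fold, 14.4% of all genes passed the p upwards and 12.3% downwards. The median of all genes was -0.0568, and that of the 9 clock genes -0.463.

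ELF4 had 177, 247 and 325 CPM at 7d+24h, against 22.4, 20.9 and 33.4 CPM at 7d. Every recovering library held more than any library of the treatment. ELF4 rose 9.22-fold (log2 fold change 3.20, SE 0.247, adjusted p = 3.54e-10). PRR5, an afternoon repressor whose protein is removed by ZTL-type F-box proteins, had 20.2, 122 and 194 CPM at 7d+24h, against 15.6, 17.4 and 13.8 CPM at 7d. The first recovering library lay just above the 7d libraries and the other 2 far above them. The rise of PRR5 was 2.88 on the log2 scale (SE 0.521, adjusted p = 0.000116), and 2.21 (adjusted p = 0.00239) without the third recovering library.

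CCA1 had 6.12, 2.72 and 6.14 CPM at 7d+24h, against 15.6, 18.6 and 15.8 CPM at 7d, and LHY had 3.99, 1.70 and 2.05 CPM against 13.6, 11.6 and 17.6 CPM. Neither gene's libraries overlapped between the groups. CCA1 fell by 1.69 (SE 0.398, adjusted p = 0.00201) and LHY by 2.45 on the log2 scale (SE 0.417, adjusted p = 5.29e-05). GI had 55.9, 62.3 and 100 CPM at 7d+24h, against 46.9, 26.7 and 39.3 CPM at 7d (log2 fold change 0.91, SE 0.230, adjusted p = 0.00364), and LUX 68.4, 95.9 and 117 CPM against 48.2, 47.6 and 63.4 CPM (0.79, SE 0.203, adjusted p = 0.00429). Scaled by library totals alone, which moves the median of all genes to 0.257, GI (1.23) and LUX passed the fold limit too. PRR7 (-0.49, adjusted p = 0.0274), TOC1 (-0.53, adjusted p = 0.00928) and ELF3 (-0.46, adjusted p = 0.0421) lay below their 7d levels.

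The second experiment held Col-0 seeds at 3d and 7d+24h, of other libraries, and the same 4 genes were called there among 5. It had no 7d group, so its comparison spans the dark treatment after 3d as well as the 24 h of recovery. The part of each cannot be told apart there. Between 7d+24h and 3d in Col-0, 22.7% of 14908 genes were called, 14.1% upwards and 8.61% downwards. ELF4 had 255, 335 and 413 CPM at 7d+24h, against 29.2, 49.9 and 48.7 CPM at 3d (log2 fold change 2.97, SE 0.295, adjusted p = 2.29e-05). PRR5 had 16.4, 46.8 and 86.1 CPM at 7d+24h, against 3.81, 14.9 and 24.3 CPM at 3d, with 1 overlapping library (1.79, SE 0.656, adjusted p = 0.0415). The first library of each group was the lowest, and leaving out 1 of 4 libraries moved the adjusted p of PRR5 to between 0.0757 and 0.198, as DESeq2 did to 0.0641. Its log2 fold change was 1.15 without the third library at 7d+24h and 2.39 without the third library at 3d. CCA1 had 2.26, 3.15 and 2.88 CPM at 7d+24h, against 8.88, 14.3 and 13.4 CPM at 3d (-2.12, SE 0.380, adjusted p = 0.000862). LHY (-1.30, SE 0.289, adjusted p = 0.00325) and PRR7 (-1.12, SE 0.148, adjusted p = 0.000126) fell as well. PRR7 had 55.8, 49.7 and 50.0 CPM at 7d+24h, against 123, 98.7 and 116 CPM at 3d. TMM factors ran from 0.7059 to 1.273 in this experiment, and with library totals alone the median of all genes moved to 0.703 from 0.0767, LHY (-0.68) and PRR7 (-0.49) missed the fold limit, and TOC1, GI and ELF3 changed sign to 0.14, 0.55 and 0.36 from -0.49, -0.07 and -0.27. CCA1 (-1.50), PRR5 (2.41) and ELF4 (3.59) were called under that scaling too.

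**Figure D2:**
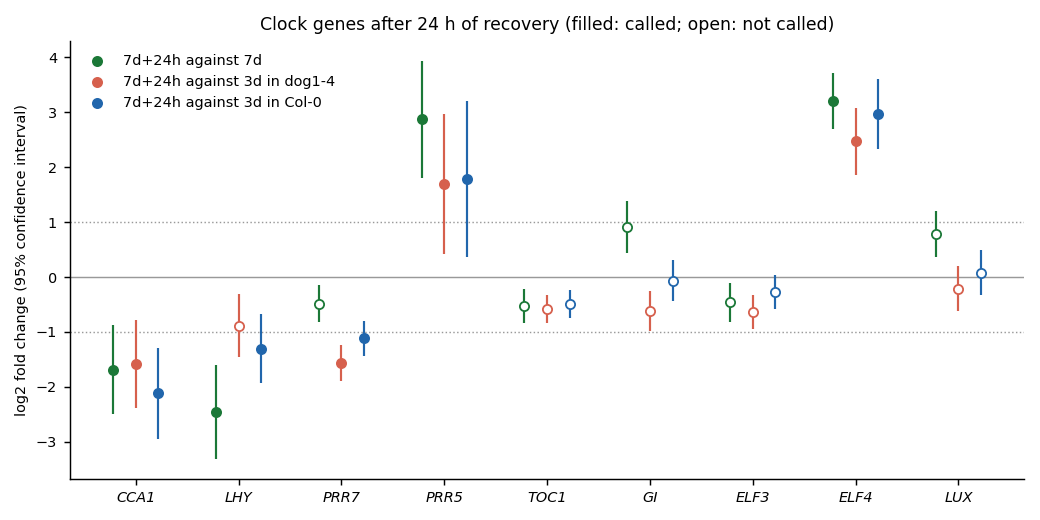
Log2 fold change (y axis, with its 95% confidence interval) of 9 clock genes after 24 h of recovery, for 7d+24h against 7d in the time course and 7d+24h against 3d in dog1-4 and in Col-0, with filled points for called genes and dotted lines at the fold limit. ELF4 lies at 3.20, 2.47 and 2.97 and CCA1 at -1.69, -1.58 and -2.12 in these comparisons. Those against 3d also span the dark treatment from 3d to 7d.

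In dog1-4 seeds, 33.4% of 14908 genes were called between 7d+24h and 3d, 17.8% upwards and 15.7% downwards, and 4 of 9 clock genes. ELF4 had 426, 447 and 441 CPM at 7d+24h, against 58.6, 57.4 and 117 CPM at 3d (log2 fold change 2.47, SE 0.282, adjusted p = 1.39e-05). PRR5 had 94.4, 107 and 72.6 CPM at 7d+24h, against 6.77, 30.3 and 42.5 CPM at 3d (1.70, SE 0.588, adjusted p = 0.0253). ELF4 and PRR5 libraries of the 2 time points did not overlap, and leaving out 1 of 4 libraries moved the adjusted p of PRR5 to between 0.0537 and 0.0706, as DESeq2 did to 0.0529. PRR7 fell by 1.56 (SE 0.152, adjusted p = 5.18e-06), to 31.6, 31.5 and 26.3 CPM at 7d+24h against 94.7, 96.7 and 72.6 CPM at 3d. CCA1 fell by 1.58 (SE 0.367, adjusted p = 0.00266). LHY had 8.21, 6.71 and 10.2 CPM at 7d+24h, against 18.8, 18.7 and 10.6 CPM at 3d, which gave -0.88 with an adjusted p of 0.0131 and missed the fold limit. Without the 8 seeds rich in LHCB1 transcripts LHY stood at -1.01 (adjusted p = 0.00177) and was called, as it was without that library.

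Other clock genes moved with the recovery. Between 7d+24h and 7d FKF1, the light-sensing partner of GI (2.04, SE 0.366, adjusted p = 0.000103), GRP7 (1.87) and ELF4-L4 (1.24) were higher, and RVE7 (-1.79), ASG4 (-1.58), RVE8 (-1.42), LNK3 (-1.27) and LNK2 (-1.21) were lower, 8 of 32 in all. RVE8 is a MYB activator of evening genes, and LNK1 to LNK4 are a family of coactivators that work with RVE8-type factors. FKF1 had 71.0, 199 and 262 CPM at 7d+24h, against 27.9, 33.7 and 60.3 CPM at 7d, with the first library lowest in both groups. In Col-0 of the second experiment GRP7 (3.08), ELF4-L1 (1.26) and COR27 (1.03) were higher at 7d+24h than at 3d, and 6 of 30 were lower, led by LNK2 (-2.56), LNK4 (-1.48), ASG4 (-1.46), RVE8 (-1.46) and PRR3 (-1.29). In dog1-4, 12 of 30 were lower, led by ASG4 (-3.32), LNK2 (-2.96), LNK3 (-2.44), LNK4 (-2.29) and RVE8 (-2.24), and GRP7 (2.56), COR27 (1.19), ELF4-L1 (1.16) and GRP8 (1.01) were higher. Without the 8 seeds rich in LHCB1 transcripts GRP7 stood at 3.02, GRP8 (0.92) missed the fold limit and ELF4-L4 (1.20, adjusted p = 0.000931) was called higher. The storage and maturation markers were lower at 7d+24h too, at 11900 to 14500 CPM in dog1-4 and 39900 to 60800 CPM in Col-0. At 3d they held 108000 to 214000 CPM in dog1-4 and 249000 to 293000 CPM in Col-0. Their part in the clock gene values was not tested.

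Between genotypes no clock gene passed both limits in seeds. At 3d, 0.953% of 14908 genes were called between dog1-4 and Col-0. The largest log2 fold changes of members were 0.96 for PRR5 (SE 0.70, adjusted p = 0.482) and 0.89 for ELF4 (SE 0.293, adjusted p = 0.137). ELF4 had 58.6, 57.4 and 117 CPM in dog1-4, against 29.2, 49.9 and 48.7 CPM in Col-0, with no overlap. The third dog1-4 library, which held the 8 seeds rich in LHCB1 transcripts, was the highest, and ELF4 stood at 0.90 (adjusted p = 0.132) without these seeds. An unadjusted p under 0.05 was found for 3 of the 9 genes, namely ELF4, TOC1 (log2 fold change -0.31) and PRR7 (-0.36), and DESeq2 called 0 past both limits. Without the share of all genes at the unadjusted limit, this count cannot be set against a background.

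At 7d+24h, 10.9% of 14908 genes were called between dog1-4 and Col-0, and 0 of 9 clock genes. Of these, 3 passed the p without the fold limit, each with lower levels in dog1-4. At any fold, 14.3% of all genes passed the p with lower and 14.9% with higher levels in dog1-4. PRR7 had 31.6, 31.5 and 26.3 CPM in dog1-4, against 55.8, 49.7 and 50.0 CPM in Col-0 (log2 fold change -0.80, SE 0.149, adjusted p = 0.00288). ELF3 had 56.8, 59.5 and 54.1 CPM in dog1-4, against 90.9, 80.0 and 76.7 CPM in Col-0 (-0.54, SE 0.140, adjusted p = 0.0142). TOC1 had 99.1, 109 and 108 CPM in dog1-4, against 153, 125 and 140 CPM in Col-0 (-0.40, SE 0.117, adjusted p = 0.0236). The libraries of these 3 genes were apart between the genotypes, and the median of all genes was 0.0606. The share of all genes with libraries apart is not given here. LHY had an unadjusted p under 0.05 as well (0.60, adjusted p = 0.111), and DESeq2 called no clock gene past both limits. PRR5 had 94.4, 107 and 72.6 CPM in dog1-4, against 16.4, 46.8 and 86.1 CPM in Col-0, with 1 Col-0 library inside the dog1-4 range and an interval of the difference that includes 0 (0.86, SE 0.539, 95% interval -0.304 to 2.03). ELF4 stood at 426, 447 and 441 CPM in dog1-4 and 255, 335 and 413 CPM in Col-0 (0.39, SE 0.261, 95% interval -0.175 to 0.953).

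Whether the change from 3d to 7d+24h differed between the genotypes was tested as an interaction of genotype with time point. It called 3.06% of 14908 genes and 0 of 9 clock genes. Without a 7d group, a difference in recovery cannot be told apart from one in the dark after 3d. GI had the 1 unadjusted p under 0.05 (log2 difference -0.55, SE 0.241, adjusted p = 0.206), with 45.1, 51.9 and 59.8 CPM in dog1-4 and 78.4, 64.5 and 57.1 CPM in Col-0 at 7d+24h, and 82.7, 74.1 and 83.9 CPM in dog1-4 and 64.7, 59.1 and 85.2 CPM in Col-0 at 3d. DESeq2 called no member either. For ELF4 the interval of the interaction ran from -1.35 to 0.347 and for PRR5 from -1.98 to 1.80, so that differences of up to several-fold in PRR5 were not resolved. Of the other clock genes, 8 of 30 were lower in dog1-4 at 7d+24h and 0 higher, where 5.29% of all genes were called lower and 5.61% higher. The lower ones were led by RVE7 (-3.11), ASG4 (-1.98), RVE4 (-1.84), BOA (-1.25) and RVE8 (-1.17). The 3 photosynthetic markers summed to 211 to 348 CPM in dog1-4 and 104 to 118 CPM in Col-0 there, and the 3 endosperm markers to 713 to 1030 CPM in dog1-4 and 229 to 473 CPM in Col-0. The endosperm markers did not go together, since EXPA2 (1.59) was called higher in dog1-4 while MAN7 (0.81) and EPR1 (-0.30) were not called. The photosynthetic markers LHCB1.3 (0.65) and RBCS1A (1.45) were not called either. The part of these tissues in the values was not tested.

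**Figure D3:**
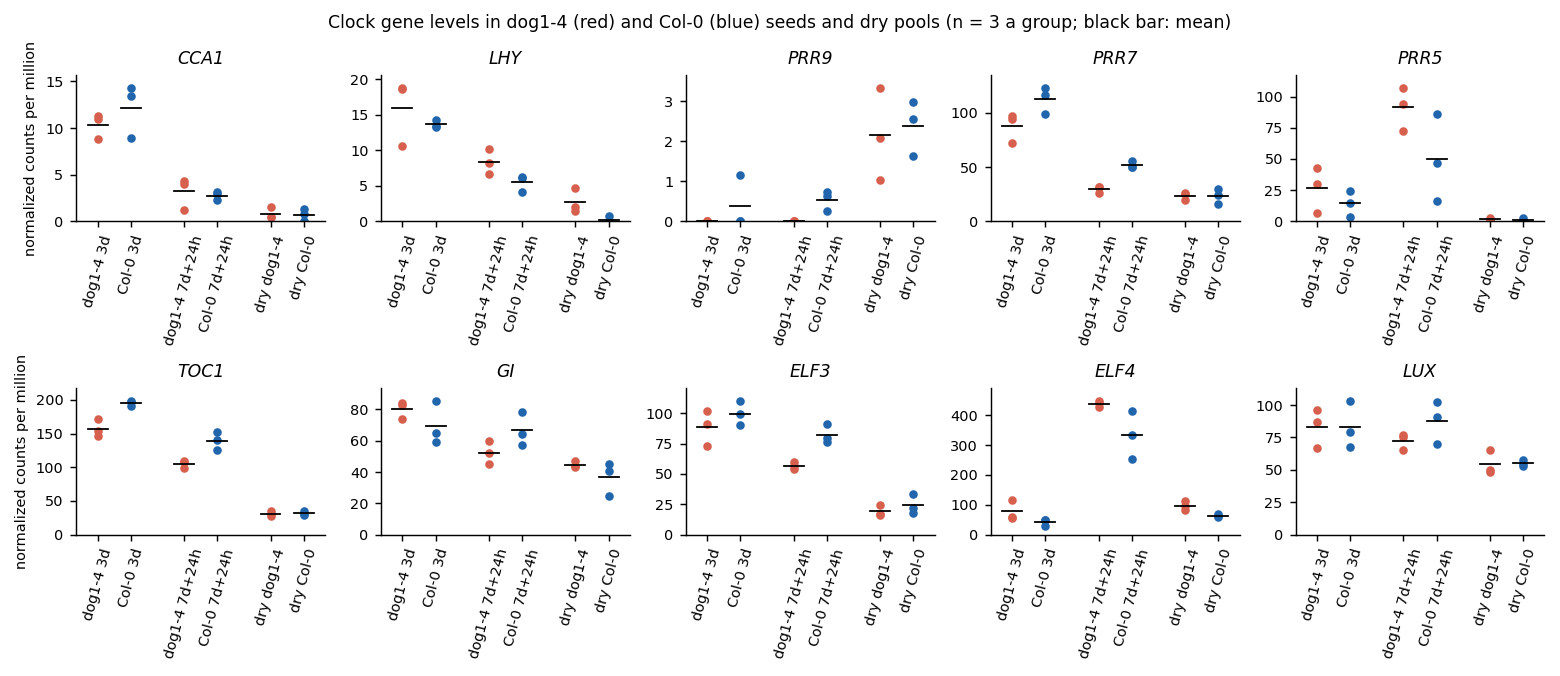
Normalized CPM of the 10 clock genes in dog1-4 (red, left of each pair) and Col-0 (blue), for single-seed libraries at 3d and 7d+24h and for dry pools (points, with the mean of 3 as a bar). PRR7 at 7d+24h lay at 26.3 to 31.6 in dog1-4 and 49.7 to 55.8 in Col-0, and ELF4 in dry pools at 81.2 to 112 in dog1-4 and 60.4 to 67.6 in Col-0.

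In dry seed pools 6 of the 10 clock genes had enough counts, and 1 of them differed. ELF4 had 96.4, 112 and 81.2 CPM in dog1-4, against 62.8, 60.4 and 67.6 CPM in Col-0. The pools did not overlap, and ELF4 was higher in dog1-4 by 0.60 on the log2 scale (SE 0.175, adjusted p = 0.0282), in a comparison that called 9.94% of 9488 genes at an adjusted p under 0.05 without a fold limit. Of these genes 4.76% were higher and 5.17% lower in dog1-4. The call was lost in 4 of 6 fits without 1 pool, with log2 fold changes between 0.47 and 0.64 and adjusted p between 0.0652 and 0.144, and by DESeq2 (0.59, adjusted p = 0.0789). The other 5 lay close to 0 or within their error, namely LUX (95% interval -0.374 to 0.378), TOC1 (-0.03), PRR7 (0.05), GI (0.32) and ELF3 (-0.39, adjusted p = 0.451). CCA1 held 1, 5 and 1 counts in dog1-4 pools and 0, 1 and 1 in Col-0 pools, and PRR5 held 5, 4 and 2 counts and 4, 0 and 1 counts. LHY had 9, 5 and 5 counts in dog1-4 pools, against 1, 0 and 0 counts in Col-0 pools, and PRR9 had 2, 11 and 5 against 4, 2 and 2. These counts were too few to test, and the dog1-4 pools were sequenced more deeply. Of 25 other clock genes tested, GRP7 was higher in dog1-4 (2.05), and ELF4-L1 (-0.90), RVE2 (-0.80), AT4G33980 (-0.69) and BOA (-0.62) were lower.

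The libraries of a group often fell apart for PRR5, as the plot by library number shows. At 7d+24h the first library held 76 UMIs of PRR5 and the third 663, at 20.2 and 194 CPM. In 8 of the 11 single-seed groups the first library was the lowest for PRR5, the exceptions being 7d, the pool-split control and dog1-4 at 7d+24h. TOC1 showed no such order among its libraries.

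**Figure D4:**
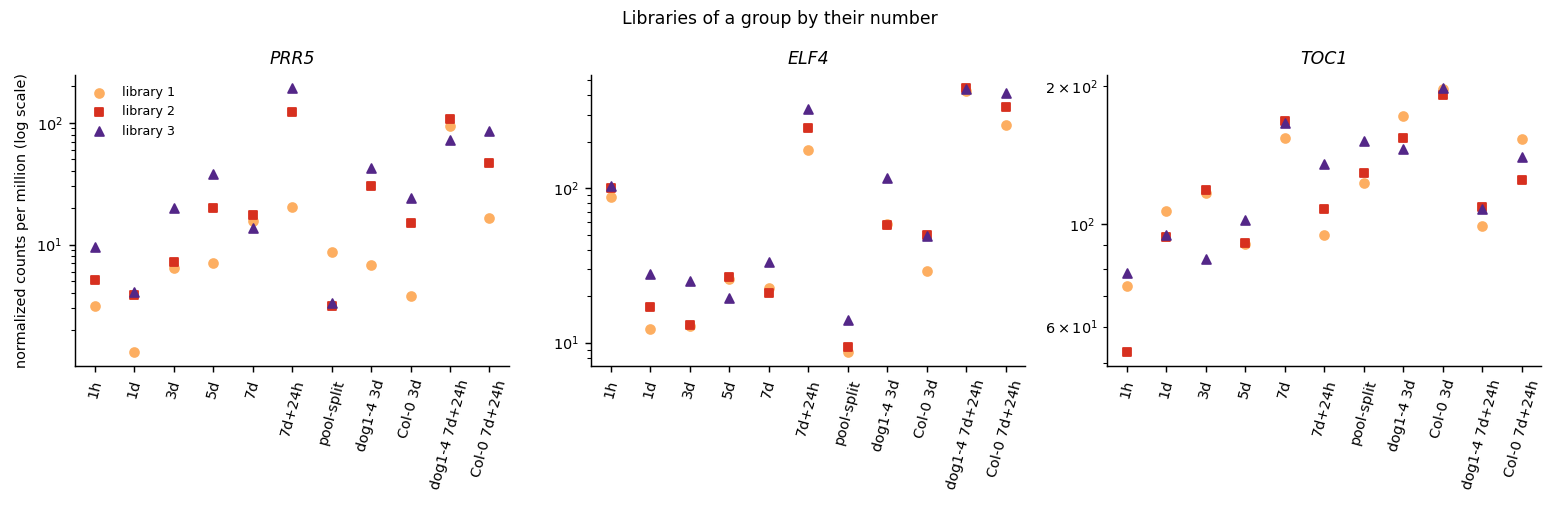
Normalized CPM (log axis) of PRR5, ELF4 and TOC1 in every single-seed library, with the libraries of a group marked by their number. PRR5 at 7d+24h spans 20.2 to 194 while TOC1 in the same libraries spans 95 to 135.

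Variation among single seeds was taken as the variance of sctransform residuals, which is near 1 where counts scatter as the model expects from depth, with the library and the unspecific UMIs of a seed as covariates, for genes that averaged 1 UMI or more in a seed. Seeds are not replicates, so these values carry no test. At 7d+24h the median over 11740 genes was 1.04, TOC1 had 0.917, ELF4 1.11 and GI 1.03, and PRR5 had 2.03. Without the library in the model PRR5 had 6.77, above 4, the limit the study set for highly variable genes. In the pool-split control 26 of 7735 genes lay above 4 here with the library in the model. The study had placed its limit 1 unit over the largest value of its own pool-split analysis, with its own gene selection and settings. With the genes and settings used here, the limit does not exclude technical variation. In Col-0 of the second experiment PRR5 likewise had 1.79 with and 4.40 without the library at 7d+24h. The median seed held 25.6, 142 and 226 CPM of PRR5 in the 3 libraries at 7d+24h (CPM of the seed's own total, without TMM), and 15.3, 61.1 and 106 CPM in those of Col-0.

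In dog1-4 at 7d+24h PRR5 varied between seeds of the same library. Its residual variance was 4.78 with the library in the model and 4.56 without, rank 601 of 12363 genes, of which 758 lay above 4. PRR5 was the 1 clock gene above 4 in any group with the library in the model. GI (2.90), TOC1 (2.46) and LUX (2.22) came next there, and the remaining 4 members analysed lay between 0.720 and 1.59. The median seed held 123, 154 and 111 CPM of PRR5 in the 3 libraries, with single seeds between 0 and 403 CPM.

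**Figure D5:**
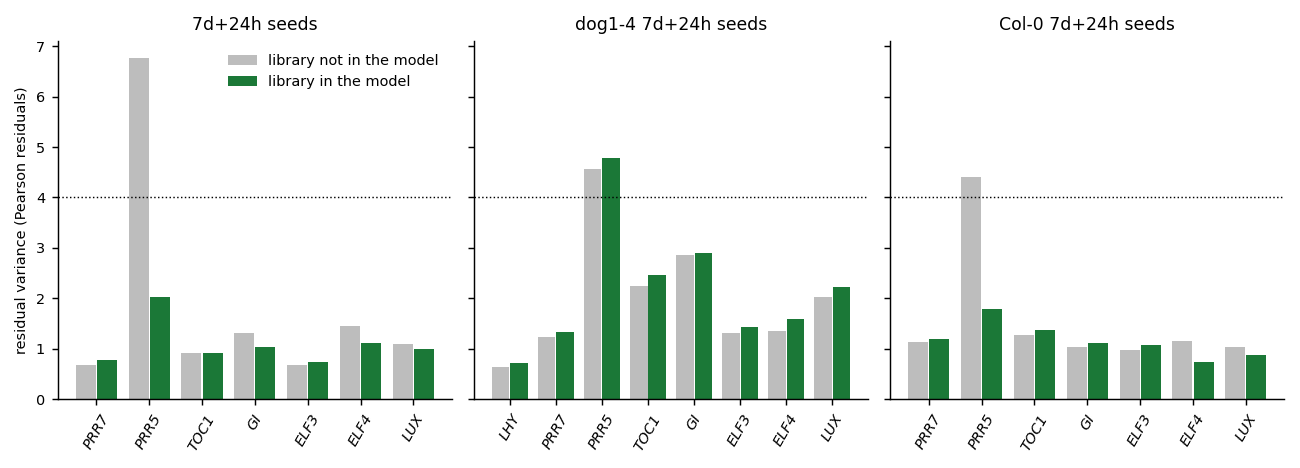
Residual variance of the clock genes among seeds of the recovery groups, with the library left out of the model (grey) or included (green), and a dotted line at the limit of 4. PRR5 falls to 2.03 at 7d+24h and to 1.79 in Col-0 once the library is included, and stays at 4.78 in dog1-4.

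All pairs of members with a mean of at least 3 UMIs correlated positively over these dog1-4 seeds. Pairs of genes outside the clock were not taken, so whether the members differ from them was not tested. After centring on the library, Spearman's rho over the 96 seeds was 0.697 between PRR5 and TOC1, 0.667 between PRR5 and GI, 0.639 between PRR5 and ELF3, 0.723 between TOC1 and GI and 0.829 between PRR5 and FKF1. The lowest values between members were 0.358 for GI and ELF3 and 0.359 for PRR7 and ELF4. In Col-0 at 7d+24h the highest values were 0.461 between PRR5 and TOC1 and between PRR5 and FKF1, over 96 seeds, and the lowest was -0.254 between TOC1 and ELF4. The seeds of a library share its preparation, and the CPM values of PRR5, TOC1 and GI ran against seed depth in dog1-4, at -0.313, -0.387 and -0.419. Those of PRR7 (-0.275), ELF3 (-0.117), ELF4 (-0.415) and LUX (-0.371) did so too. The values of rho therefore describe the seeds and are given without a p.

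Detection varied with the levels and with depth. LUX fell between 1h and 1d, yet 77.4% of seeds had a UMI of LUX at 1h and 89.6% at 1d. The median seed held 31592 UMIs on nuclear protein-coding genes at 1h and 76314 at 1d. After each seed was thinned to 5000 UMIs the shares for LUX were 24.7% and 20.8%. ELF4 had a UMI in 100% of 95 seeds at 7d+24h and in 59.1% of 93 seeds at 7d, and in 82.1% and 5.38% of them after each seed was thinned to 5000 UMIs. LHY had a UMI in 22.1% of seeds at 7d+24h and 48.4% at 7d. PRR9 was seen in 0 of 95 dog1-4 seeds at 3d and 0 of 96 at 7d+24h, which allows shares of seeds with a UMI, not of seeds that express the gene, of up to 3.81% and 3.77% (exact 95% binomial interval, counting error only). In the pool-split control ELF4 lay at 8.63, 9.38 and 14.1 CPM, against 22.4, 20.9 and 33.4 CPM in 7d seeds (log2 fold change -1.35, SE 0.344, adjusted p = 0.00465). ELF4 was the 1 of 9 clock genes called between these groups. Of all genes 25.7% were called, 25.5% higher and 0.238% lower in the pool-split control. The reason for the lower ELF4 was not tested. Without the third 7d library the log2 fold change was -1.04 with an adjusted p of 0.0568.

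Across the 18 libraries of the 6 time points, the genes whose log levels were most like those of a clock gene were sought among 8759 genes by Pearson's r, as a description, since the libraries share time points, depth and TMM scaling. PRR5 was most like FKF1 (r 0.934), ELF4 most like the aquaporin gene PIP1;4 (0.922) and the ascorbate synthesis gene VTC2 (0.914), and TOC1 most like SYP23 (0.931). LUX was most like SPS1 (0.879), ELF3 most like EMB3142 (0.880), PRR7 most like AT4G21323 (0.889) and GI most like GRF1 (0.814). Among the members themselves TOC1 and ELF3 (0.841), PRR5 and GI (0.797), GI and LUX (0.759) and ELF4 and LUX (0.741) were the most alike.

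In TAIR10.1, ELF3 overlaps 2 annotated genes and LUX 1, all on the other strand. The single-seed counts used the strand of the read, and the strand setting for the dry pools is not given in the sources used here. For ELF3 (chr2:11058944-11063324) and LUX (chr3:17183042-17186959) reads of the overlapping genes can therefore not be told apart in the dry pools. The other 8 clock genes overlap no annotated gene.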

How the data were processed

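Single-seed libraries of a time course in Col-0, single-seed libraries of dog1-4 and Col-0 and dry seed pools were grouped by the labels. Per the methods and the labels, the authors trimmed poly(A) tails with BRBseqTools, mapped reads uniquely with STAR 2.7.8a to TAIR10 and Araport11, and deposited sense-strand UMI counts for each gene in each seed. For dry pools the authors removed duplicates with UMI-tools 1.1.0 and deposited counts from HTSeq 0.11.3. The deposited counts are neither normalized nor filtered. Oligo(dT) priming yields 1 count per molecule near the 3′ end, so counts do not scale with gene length, and scarce transcripts such as PRR9 fall below detection. Tables list 37184 genes (37336 in the dog1-4 experiment), of which 27432 are nuclear protein-coding in TAIR10.1. UMIs elsewhere are called unspecific.

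Seeds with at least 5000 UMIs on these genes were kept (665 and 382) and summed per library. Genes passing filterByExpr (20205, 14908 and 9488 in dry pools) were tested by edgeR 4.0.16 (quasi-likelihood test, R 4.3.3), in 1 fit over the groups of an experiment, with TMM factors from genes averaging 1 UMI or more in kept seeds and Benjamini-Hochberg adjustment over all genes tested. A log2 fold change beyond 1 was required except in dry pools and in the F-test. Intervals are at 95%. Residual variances came from sctransform 0.4.2 with unspecific UMIs and library as covariates, for genes with a UMI in at least 5 seeds of every library, and Spearman's rho was taken on library-centred log CPM with a pseudocount of 10 for genes with a mean of at least 3 UMIs. The scripts were tested on simulated data.

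Alternatives were DESeq2 1.42.0, its size factors in edgeR, no low-count filter, a gene filter rebuilt after the study's (a mean of at least 1 UMI and a correlation of at most 0.3 with unspecific UMIs, which kept 8070 and 679 genes and so differs from the study's own), a minimum of 10000 UMIs, the seeds below their library's median unspecific share, a replicate block and leaving out each library. Added after seeing the data were scaling by totals, the comparison of pool-split with 7d, a test of the library number, and leaving out 8 seeds. The named genes are all 10 members and, of 32 other clock genes, up to 5 in each direction by size of change where called. For likeness, the 2 genes with the highest Pearson's r were taken. The members and lists were chosen with earlier results of these data known. Symbols and coordinates are from RefSeq's TAIR10.1. The promoter window of 1 clock gene is not reported here.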

Additional observations from a re-analysis of the deposited data

Results flagged for a closer look

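The change between 3d and 7d+24h differed between genotypes for 3 other clock genes in the interaction of genotype with time point (edgeR quasi-likelihood test), where 3.06% of all genes were called. RVE4, a MYB activator of evening genes, had a log2 difference of -1.84 (SE 0.336, adjusted p = 0.0124), with a change from 3d of -1.72 in dog1-4. Its levels at 7d+24h were 46.4, 38.5 and 29.3 CPM in dog1-4 against 166, 127 and 113 CPM in Col-0. ASG4, a further gene of the CCA1 family, had -1.86 (SE 0.285, adjusted p = 0.0071), with changes from 3d of -3.32 in dog1-4 and -1.46 in Col-0. BOA, the closest relative of LUX, had -1.30 (SE 0.330, adjusted p = 0.0462), with -1.89 in dog1-4 and -0.59 in Col-0. Without the 8 seeds rich in LHCB1 transcripts the differences were -1.87 for RVE4, -1.92 for ASG4 and -1.37 for BOA, and LNK3 (-1.23, adjusted p = 0.0395) was called as well. In the third dog1-4 library at 3d, which held those seeds, the 3 genes stood at 86.5, 66.7 and 100 CPM, lower than in the first and second. For the 9 clock genes tested the same interaction lay between -0.55 (GI) and 0.53 (CCA1) and called none.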

How the results depend on the processing

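Of 1840 values of clock genes under the alternatives, 1783 kept their side of the threshold, 23 passed it newly and 34 no longer passed it. No called value changed sign, and 66 values called in neither fit did, 12 of them by library totals. Leaving out 1 library at a time, the number of clock genes called lay between 1 and 3 for 1d against 1h, 2 and 3 for 3d against 1d, 0 and 0 for 5d against 3d, 0 and 1 for 7d against 5d, 4 and 5 for 7d+24h against 7d, 3 and 4 for 7d against 1h, 9 and 9 for the F-test over 6 time points, 0 and 1 for pool-split against 7d, 0 and 0 for dog1-4 against Col-0 at 3d and at 7d+24h, 4 and 5 for 7d+24h against 3d in Col-0, 3 and 5 for 7d+24h against 3d in dog1-4, 0 and 0 for the genotype by time interaction, and 0 and 1 for dog1-4 against Col-0 in dry seeds. With the rebuilt gene filter, which leaves out CCA1 and LHY, 0 were called for 3d against 1d and 2 for 7d+24h against 7d. In the seeds below their library's median unspecific share 1 was called for 3d against 1d, 1 for 7d against 5d (LHY, -1.33) and 1 for dog1-4 against Col-0 at 7d+24h (LHY, 1.13). By library totals without TMM 1 was called for 7d against 5d (ELF3, 1.09) and 3 for 7d+24h against 3d in Col-0. The DESeq2 test called 0 in dry seeds. Without the library covariate 1 member (PRR5) lay over the limit of variation at 7d+24h and 1 in Col-0 at 7d+24h. The causes of these shifts were not tested beyond the genes and samples left out.

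The libraries' numbers were tried as a replicate block. Deviations of libraries with the same number correlated by 0.0374 on average in the time course, 0.0905 in the dog1-4 experiment and -0.0657 in dry pools. Over all genes the numbers therefore do not pair the samples. PRR5, ELF4 and FKF1 did differ by the number in the time course, as given under other observations. With the replicate block 1 clock gene was called for dog1-4 against Col-0 at 7d+24h (PRR5, 1.16, adjusted p = 0.0473) and 0 in dry seeds (ELF4, 0.58, adjusted p = 0.0683), and no other call of a clock gene changed.

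The share of all genes called moved by over 1.5 times in some comparisons. Recovery in Col-0 and in dog1-4 stands here for 7d+24h against 3d. With the rebuilt gene filter, which left 8070 genes in the time course and 679 in the dog1-4 experiment, it was 26.9% for 1d against 1h, 16.7% for 3d against 1d, 0.186% for 5d against 3d, 11.5% for 7d against 5d, 28.2% for 7d against 1h, 1.88% for pool-split against 7d, 3.68% and 18.6% for dog1-4 against Col-0 at 3d and 7d+24h, 13.0% for recovery in Col-0 and 6.33% for the interaction. Without a low-count filter it was 6.19% for dog1-4 against Col-0 at 7d+24h, 13.1% and 22.3% for recovery in Col-0 and dog1-4, 1.79% for the interaction and 6.48% in dry seeds. In the lower-background seeds it was 29.6% for 3d against 1d, 27.1% for 7d against 5d, 8.29% for pool-split against 7d and 0.562% for dog1-4 against Col-0 at 3d. By library totals it was 36.2% for recovery in Col-0, 1.78% for dog1-4 against Col-0 at 3d and 5% for the interaction, which reached 5.59% without the 8 seeds rich in LHCB1 transcripts. DESeq2 and the replicate block gave 0.0619% and 0.0544% for 5d against 3d, 1.85% and 1.46% for dog1-4 against Col-0 at 3d and 4.66% and 4.88% for the interaction. Leaving out 1 library gave 0.00949% to 0.164% for 5d against 3d, 16.9% to 25.6% for pool-split against 7d, 0.274% to 4.89% and 5.83% to 12.6% for dog1-4 against Col-0 at 3d and 7d+24h, 0.946% to 8.89% for the interaction and 5.95% to 9% in dry seeds. CCA1 and LHY rest on 14 to 85 UMIs at each time point of the time course, so changes smaller than their errors could not be detected at this depth.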

Other observations

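A test of the library number over the time course, with the groups as the other term, was added after the spread of PRR5 had been seen. It called 111 of 20205 genes (0.549%), among them FKF1 (rank 11, adjusted p = 0.00133), PRR5 (rank 77, adjusted p = 0.0337) and ELF4 (rank 93, adjusted p = 0.0426). In the dog1-4 experiment and in dry pools it called 0 genes. On the log2 scale PRR5 was 1.31 higher in libraries numbered 2 and 1.83 higher in those numbered 3 than in those numbered 1, and FKF1 was 0.83 and 1.25 higher. The sources used here do not say what the number stands for, and differences between libraries in handling or in hour cannot be told apart from it.

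GRP7, the circadian RNA-binding protein, stood at 2620 to 5080 CPM at 7d+24h and 890 to 1150 CPM at 7d, and at 23.7 to 69.9 CPM in dog1-4 and 6.42 to 16.4 CPM in Col-0 dry pools. LNK2, LNK4, ASG4 and RVE8 were lower in both genotypes at 7d+24h than at the earlier time point of the second experiment. That span includes part of the dark treatment as well as the recovery. In the time course, LNK4 was not among the genes called between 7d+24h and 7d.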
